A study of Mus musculus with 11 samples.

Results

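The Nr4a orphan nuclear receptors are a family of 3 genes, Nr4a1 (Nur77), Nr4a2 (Nurr1) and Nr4a3 (Nor1). The genes were taken by symbol and all 3 were found among the 21957 genes counted in each library. The cells were primed OT1 cells, CD8 T cells of the mouse whose transgenic receptor recognises an ovalbumin peptide. Stimulated cells had received beads carrying antibodies to CD3 and CD28 for 2 h, and unstimulated cells were resting. Their time is labelled T0 while the protocol speaks of 2 h at rest, so it is not clear whether they spent the same 2 h in culture, and if they did not, stimulation and time in culture cannot be told apart. Cells of both groups were treated for 10 min with cycloheximide, which stops elongating ribosomes on the mRNA. RNA was counted in 3 stimulated and 3 unstimulated libraries, and ribosome footprints, the mRNA fragments that a translating ribosome protects, in 2 stimulated (replicates 2 and 3) and 3 unstimulated libraries. Stimulated footprint replicate 1 was not analysed here. The labels do not say how the cells were primed or whether replicates came from separate mice or cultures, so p-values measure the spread between these libraries only, which may be technical. The stated aim was to follow mRNA abundance and translation in memory CD8 cells over the first 2 h of activation.

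Nr4a proteins are transcription factors of the nuclear receptor superfamily whose ligand pocket is filled by bulky side chains, so that their activity is set mainly by how much protein a cell holds. They bind DNA as monomers at NBRE sites, as dimers among themselves, and, for Nr4a1 and Nr4a2, with the retinoid X receptor. Their genes are primary response genes that need no new protein for transcription. In T cells the antigen receptor induces them through calcium, the kinases of the MAP kinase pathway, and the factors MEF2, NFAT and CREB. Nr4a1 is widely used as a reporter of antigen receptor signalling, Nr4a1 and Nr4a3 take part in the deletion of self-reactive thymocytes, and the family is known for restraining effector responses and promoting exhaustion of CD8 T cells.

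The members lie on separate chromosomes. In the RefSeq annotation of GRCm38.p6, Nr4a1 (ENSMUSG00000023034) spans chr15:101253902-101274795, Nr4a2 (ENSMUSG00000026826) chr2:57106830-57124003 on the minus strand, and Nr4a3 (ENSMUSG00000028341) chr4:48045078-48086447. The promoters are shown because the members moved together, and because each holds several copies of TGACG, the core of the cyclic AMP response element (CRE) to which CREB and its relatives bind. The 250 bases before the RefSeq start site (GRCm38.p6) are printed 5′ to 3′ on the strand of the gene, chr15:101266596-101266845 for Nr4a1, chr2:57124004-57124253 for Nr4a2 and chr4:48045055-48045304 for Nr4a3. The table of promoters gives 1 start for each member, and how it was chosen is not given in the sources used here. That start lies 12944 bases inside the annotated span of Nr4a1 and 227 bases inside that of Nr4a3, and is the first base of the span for Nr4a2. Capitals mark TGACG or its reverse complement CGTCA.
Nr4a1: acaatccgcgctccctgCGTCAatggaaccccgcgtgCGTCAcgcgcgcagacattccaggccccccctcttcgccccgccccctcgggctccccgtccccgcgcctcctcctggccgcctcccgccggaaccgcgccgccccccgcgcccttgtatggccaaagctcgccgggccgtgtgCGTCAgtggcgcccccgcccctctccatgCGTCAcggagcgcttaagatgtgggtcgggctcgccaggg
Nr4a2: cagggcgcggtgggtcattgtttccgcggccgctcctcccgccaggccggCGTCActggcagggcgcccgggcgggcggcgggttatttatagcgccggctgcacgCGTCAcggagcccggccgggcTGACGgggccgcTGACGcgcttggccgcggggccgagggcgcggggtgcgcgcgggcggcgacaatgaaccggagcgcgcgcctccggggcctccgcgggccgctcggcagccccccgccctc
Nr4a3: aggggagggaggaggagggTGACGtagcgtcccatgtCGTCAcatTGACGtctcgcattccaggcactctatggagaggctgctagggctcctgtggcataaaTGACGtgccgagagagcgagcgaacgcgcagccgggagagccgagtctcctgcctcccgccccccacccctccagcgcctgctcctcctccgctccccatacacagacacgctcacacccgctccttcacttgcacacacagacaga

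Each of these promoters held 4 copies of TGACG or CGTCA in the window that runs from 250 bases before to 50 bases after the start. In Nr4a1 all 4 lay on the strand opposite to the gene, at -233 to -229, -213 to -209, -69 to -65 and -40 to -36. In Nr4a2 they lay at -200 to -196 and -144 to -140 on the opposite strand and at -123 to -119 and -111 to -107 on the gene's own strand. In Nr4a3 the copies were at -231 to -227, -205 to -201 and -147 to -143 on its own strand and at -213 to -209 on the other, so that 3 of the 4 fell within a short stretch at the far end. Of 32851 RefSeq promoters of the same length, from 27025 genes, 20.8% held at least 1 copy and 0.231%, 76 promoters, held at least 4. The most copies in any promoter was 6. The members' windows were rich in G and C, with 72.3% for Nr4a1, 81.7% for Nr4a2 and 64.7% for Nr4a3, beside a median of 52.7% over all promoters. Among the 6218 promoters with at least 64.7% G and C, 32.4% held 1 or more copies and 0.563% held 4 or more.

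Other motifs were searched on both strands in the same windows. The whole CRE (TGACGTCA, in 1.79% of all promoters), the AP-1 site TGACTCA (5.20%), the NBRE to which Nr4a monomers bind (AAAGGTCA, 1.51%), the MEF2 site CTAAAAATA (0.517%), the NFAT core GGAAAA (23.4%) and the CArG box of serum response factor (1.63%) had no match in any of the 3 windows. TGACG is contained in the whole CRE, so the copies counted above all stood outside a whole site. The Sp1 site GGGCGG matched 3 times in Nr4a1, 5 times in Nr4a2 and 1 time in Nr4a3. At least 1 match was found in 35.7% of promoters, at least 3 in 10.7% and at least 5 in 2.71%. These shares are over all promoters, not over those as rich in G and C. The TATA box TATAAA, found in 13.6% of promoters, matched 1 time in Nr4a2, on the opposite strand at -164 to -159. A match describes these letters only, and a missing match says nothing of a factor's binding elsewhere.

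**Figure D1:**
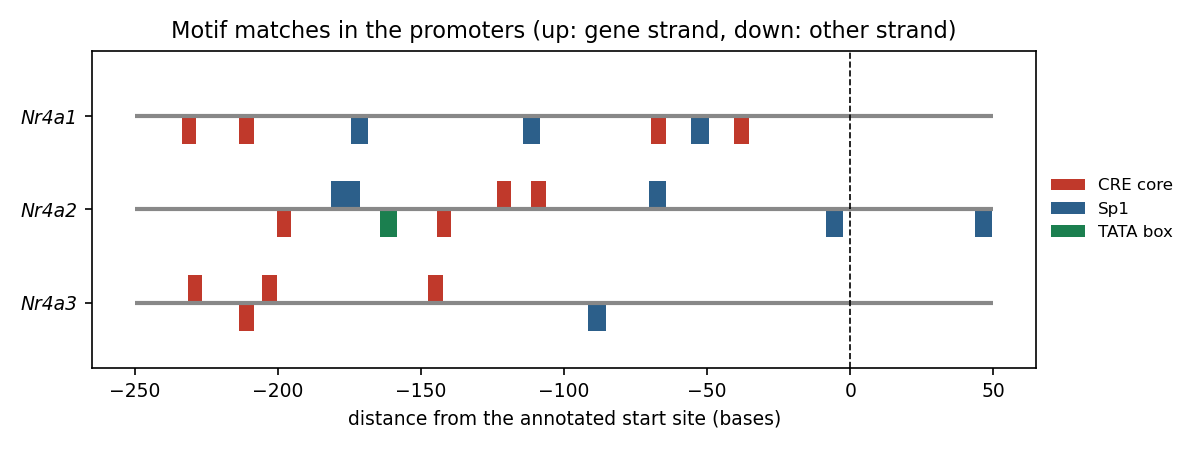
Positions of motif matches in the promoter windows of Nr4a1, Nr4a2 and Nr4a3, in bases from the annotated start site; marks above a line are on the gene's strand and marks below it on the other strand. Each gene has 4 marks for the CRE core (TGACG or CGTCA), and only Nr4a2 has a TATA box mark among the 3.

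RNA libraries held 21658263 to 39346699 counts and footprint libraries 11136 to 23641, so that 1 footprint was worth 41.6 to 104 CPM (counts scaled to library size by the TMM method) and a count of 0 allowed up to 3 footprints. Together, Gm10800, Gm10801, Gm20594 and Lars2 made up 25.0, 22.5 and 12.8% of the counts of stimulated RNA replicates 1 to 3, against 4.09, 14.9 and 5.14% in unstimulated RNA replicates 1 to 3. Counts of 1541 olfactory, vomeronasal and defensin genes, which T cells are not known to use, took 0.276, 0.203 and 0.0686% in stimulated RNA and 0.0300, 0.189 and 0.0407% in unstimulated RNA. The CD8 T cell markers (Cd3e, Cd3g, Cd247, Cd8a, Cd8b1, Lck and Zap70) summed to 1644 to 2656 CPM in stimulated RNA and 2200 to 2489 CPM in unstimulated RNA, and all 7 stood above 10 CPM in both. None of the 5 B cell markers or 8 myeloid markers reached 10 CPM in either group, and the B cell markers had no footprint. The NK cell list summed to 48.6 to 67.6 CPM in stimulated RNA and 37.8 to 38.3 CPM in unstimulated RNA, and the list for CD4 and regulatory T cells to 18.9 to 24.8 CPM in stimulated RNA and 11.8 to 12.2 CPM in unstimulated RNA. Most of the sum of the NK cell list came from Eomes, which CD8 T cells also express, with 46.9 to 65.8 CPM in stimulated and 36.5 to 37.4 CPM in unstimulated RNA, while Ncr1 and Klrb1c reached at most 1.19 CPM in stimulated and 0.727 CPM in unstimulated RNA. The CD4 list was carried by Cd40lg, an activation gene, with 13.9 to 20.7 CPM in stimulated and 6.74 to 9.24 CPM in unstimulated RNA. The part of these differences in the results below was not tested.

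All 3 Nr4a mRNAs were higher in stimulated cells, between 2.31 and 2.73-fold, and their libraries did not overlap between the groups. Of 18886 genes tested with edgeR, 677 (3.58%) were higher and 883 (4.68%) lower at an adjusted p under 0.05, and 2907 (15.4%) had every stimulated library above every unstimulated one. These genome-wide counts were 6851 higher and 6173 lower without unstimulated replicate 2. Without stimulated replicate 3 they were 984 and 4271, and without any 1 of the other 4 libraries they lay at 283 to 439 and 300 to 478. The median log2 change over all genes tested was 0.39 and varied with the scaling, so each member's change is also given as its distance above this median. The median also differed by level, with -0.09 over the 8705 genes that reached 10 CPM in 1 of the groups, as all members did, and 1.03 over the 10181 genes below. In bulk RNA, a change in the number of cells that express a gene and a change in the amount per cell cannot be told apart.

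Nr4a1, the member most used to report antigen receptor signals, had 975, 1349.8 and 1675 CPM in stimulated RNA replicates 1 to 3, against 499.8, 450.1 and 515 CPM in unstimulated RNA replicates 1 to 3. Every stimulated library stood above every unstimulated one, and the stimulated libraries were spread more widely. The means were 1333 ± 350.2 CPM in stimulated and 488 ± 34.0 CPM in unstimulated cells (SD, n = 3 each). The log2 change was 1.45 ± 0.23 (SE), a 2.73-fold rise with a 95% interval of 1.92 to 3.89 (edgeR quasi-likelihood test, adjusted p = 0.00369), and lay 1.06 above the median gene and 1.54 above the median of genes at 10 CPM or more.

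Nr4a2, best known for the development of dopamine neurons and in T cells for the support of Foxp3 expression, had 318, 391 and 481 CPM in stimulated RNA replicates 1 to 3. In unstimulated RNA replicates 1 to 3 it had 176, 161 and 177 CPM. The groups did not overlap, and the unstimulated libraries lay close together. The change was 1.21 ± 0.20 in log2, or 2.31-fold (1.70 to 3.16), with means of 397 ± 81.6 CPM in stimulated and 171 ± 8.67 CPM in unstimulated cells (SD, n = 3 each; edgeR adjusted p = 0.00456). Without stimulated replicate 2 the log2 change was 1.04 and the call was lost (edgeR adjusted p = 0.0771). The distance above the median gene was 0.82, and above the median of genes at 10 CPM or more it was 1.30.

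Nr4a3, which overlaps with Nr4a1 in function in T cells, had 568, 758 and 838 CPM in stimulated RNA replicates 1 to 3, against 283, 256 and 286 CPM in unstimulated RNA replicates 1 to 3. The groups did not overlap, and the stimulated libraries were again the more widely spread. Means were 721 ± 139 CPM in stimulated and 275 ± 16.5 CPM in unstimulated cells (SD, n = 3 each). The mRNA rose by 1.39 ± 0.21 in log2, 2.62-fold (1.91 to 3.60), with an edgeR adjusted p of 0.00248, and lay 1.0 above the median gene and 1.48 above that of genes at 10 CPM or more.

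The members kept the same order among the libraries of each group. Their summed level was 1861, 2499 and 2994 CPM in stimulated RNA replicates 1 to 3 and 959, 868 and 978 CPM in unstimulated RNA replicates 1 to 3. Within each group the sum was lowest in the library where Gm10800, Gm10801, Gm20594 and Lars2 had their largest share of counts, stimulated replicate 1 and unstimulated replicate 2, and in stimulated cells it was highest where they took the smallest. The part of that share in the members' levels was not tested. In a fit without the 3 RNA libraries with the most olfactory, vomeronasal and defensin counts (stimulated replicates 1 and 2, unstimulated replicate 2), added after the data were seen, the log2 changes were 1.27 for Nr4a1, 1.0 for Nr4a2 and 1.11 for Nr4a3. The largest edgeR adjusted p of the 3 was 8.0e-04 there, with a lone stimulated library that is assumed to vary like the unstimulated ones. With the share of those genes as a covariate the changes were 1.64 for Nr4a1, 1.37 for Nr4a2 and 1.54 for Nr4a3.

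**Figure D2:**
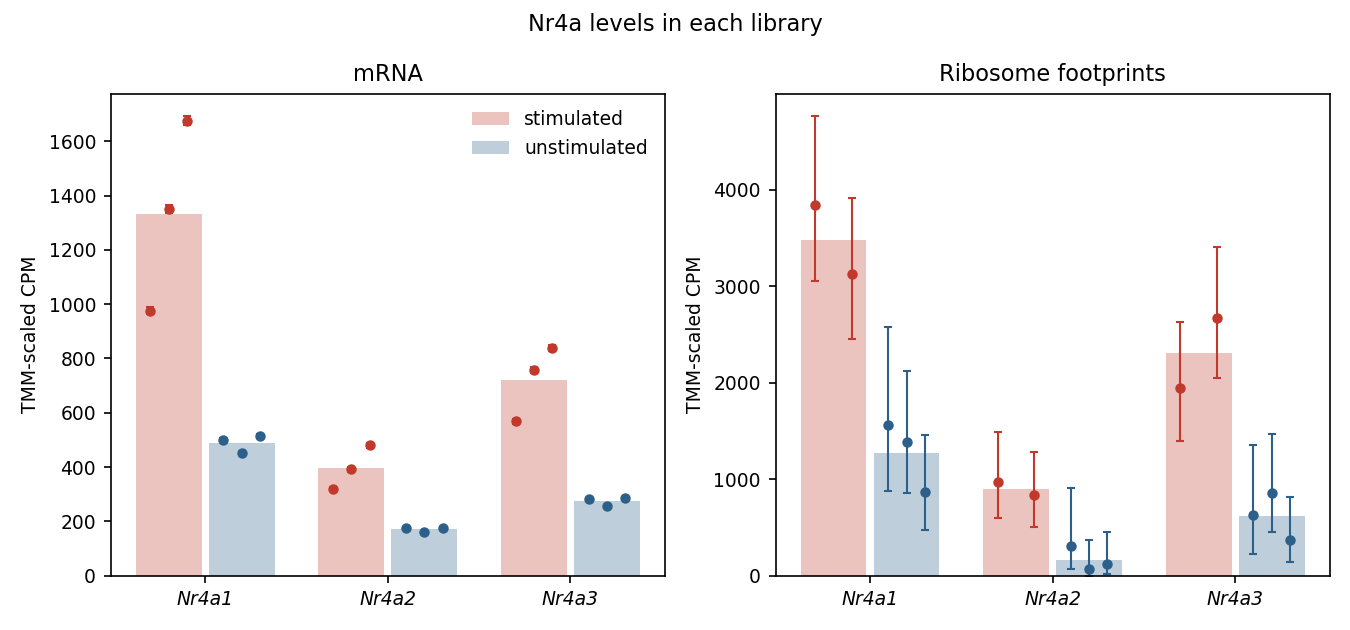
Level of each Nr4a gene in every library, in TMM-scaled CPM on a linear axis, for mRNA (left panel) and ribosome footprints (right panel); points are libraries with exact 95% counting intervals and bars are group means. In both panels every stimulated library lies above every unstimulated one for all 3 genes, and the intervals are wide in footprints, where Nr4a2 had 1 to 3 footprints in each unstimulated library.

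Footprints of all 3 members were also more frequent in stimulated cells, by 2.8-fold for Nr4a1, 3.73-fold for Nr4a3 and 5.77-fold for Nr4a2, with wide intervals. Of 256 genes with enough footprints to be tested, 15 (5.86%) were higher and 9 (3.52%) lower, and 53 (20.7%) had every stimulated library above every unstimulated one. Leaving out unstimulated replicate 2, stimulated replicate 2 or stimulated replicate 3 left 8, 9 and 4 genes higher. By log2 change Nr4a3 was in place 12 and Nr4a1 in place 18 of the 256. The filter asked for 656 CPM in at least 2 libraries. Nr4a1 reached this in all 5 libraries and Nr4a3 in both stimulated and 1 unstimulated library. Nr4a3 thus needed a stimulated library to be tested, which limits its footprint and efficiency tests, though its footprint call also held without a filter. Nr4a2 reached 656 CPM in the stimulated libraries alone, so it had to differ in order to be tested, and its footprint and efficiency values below are a description.

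For Nr4a1, 83 and 75 footprints were counted in stimulated replicates 2 and 3, against 15, 21 and 14 in unstimulated replicates 1 to 3. Scaled to library size these were 3838 and 3123 CPM in stimulated cells and 1561, 1387 and 869 CPM in unstimulated cells. The lowest stimulated library held more than the highest unstimulated one by either measure. The log2 change was 1.49 ± 0.28, 2.8-fold with an interval of 1.91 to 4.12 (edgeR adjusted p = 8.3e-06), and it passed in every alternative that was run.

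For Nr4a3, 42 and 64 footprints were counted in stimulated replicates 2 and 3, against 6, 13 and 6 in unstimulated replicates 1 to 3. The levels were 1942 and 2665 CPM in stimulated cells and 624, 858 and 372 CPM in unstimulated cells. The groups did not overlap. The log2 change was 1.90 ± 0.41, 3.73-fold (2.15 to 6.49), with an edgeR adjusted p of 9.9e-05. Without stimulated replicate 3 it was 1.66 and no longer passed (edgeR adjusted p = 0.159).

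For Nr4a2, 21 and 20 footprints were counted in stimulated replicates 2 and 3, against 3, 1 and 2 in unstimulated replicates 1 to 3. The levels were 971 and 833 CPM in stimulated cells and 312, 66.0 and 124 CPM in unstimulated cells, where each count moved the level by 62.1 to 104 CPM. Stimulated libraries were alike and unstimulated ones were at the limit of what this depth can show. Pooled over libraries, 41 footprints in stimulated and 6 in unstimulated cells gave a ratio of scaled counts of 6.12, with an exact interval of 2.58 to 17.6 for counting error alone. The fitted log2 change was 2.53 ± 0.84, 5.77-fold with an interval of 1.84 to 18.1. Its edgeR adjusted p of 0.0294 is not read as a result, because of the filter, and did not stay under the threshold with DESeq2, with limma voom, without a filter and without unstimulated replicate 2, stimulated replicate 2 or stimulated replicate 3 (adjusted p between 0.0735 and 0.905).

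Translational efficiency, the change in footprints beyond the change in mRNA, did not pass for any member. With edgeR 0 of 255 genes passed as higher (0%) and 0 as lower (0%), with 28 genes at an unadjusted p under 0.05. DESeq2, run without the filter on low counts, called 21 higher and 8 lower of 1357 genes. On the 255 genes limma voom called 1 higher. Without unstimulated RNA replicate 2, edgeR called 24 genes higher, without stimulated RNA replicate 3 it called 16, and no member was among those called in any alternative. The log2 change in efficiency was 0.04 ± 0.42 for Nr4a1, with a 95% interval of -0.78 to 0.86 (edgeR adjusted p = 0.983). Nr4a3 had 0.52 ± 0.49, with an interval of -0.44 to 1.48 (edgeR adjusted p = 0.798). Nr4a2 had 1.39 ± 0.75, with an interval of -0.08 to 2.87 (unadjusted p = 0.0645, edgeR adjusted p = 0.503). These intervals hold 0, and at this depth they also hold changes as large as 1.82-fold for Nr4a1, 2.8-fold for Nr4a3 and 7.33-fold for Nr4a2.

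**Figure D3:**
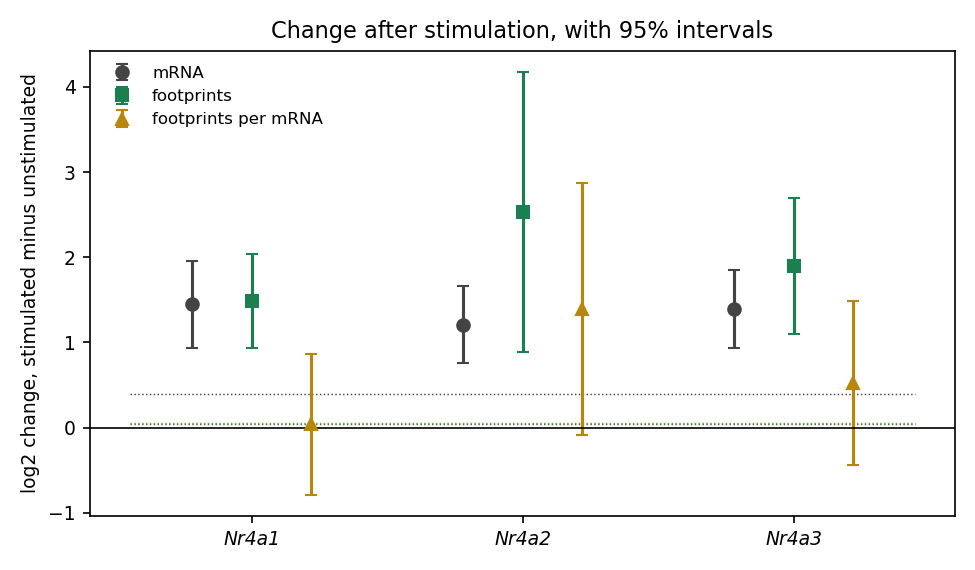
Log2 change, stimulated minus unstimulated, of each Nr4a gene in mRNA (circles), footprints (squares) and footprints per mRNA (triangles), with 95% intervals; dotted lines mark the median of all genes tested in each comparison. The mRNA changes of 1.21 to 1.45 and the footprint changes of 1.49 for Nr4a1 and 1.90 for Nr4a3 have intervals above 0. The footprint value of Nr4a2 passed the filter through stimulated libraries alone, and that of Nr4a3 needed a stimulated library to pass it. The intervals of footprints per mRNA cross 0.

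The ratio of footprint CPM to RNA CPM shows the same data as levels, and can be set between genes because coding length cancels. For Nr4a1 the ratio was 2.84 and 1.86 in stimulated replicates 2 and 3, against 3.12, 3.08 and 1.69 in unstimulated replicates 1 to 3, and the groups overlapped. Pooled over libraries, with RNA replicates 2 and 3 for stimulated cells, it was 2.29 (exact 95% interval 1.95 to 2.68) in stimulated and 2.5 (1.86 to 3.30) in unstimulated cells. With stimulated RNA replicate 1 included, which has no footprint library here, the stimulated value was 2.60, so the order of the groups depended on that library. The medians of the 255 genes were 1.82 in stimulated and 1.88 in unstimulated cells, so both values stood above the middle gene.

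For Nr4a3 the ratio was 2.56 and 3.18 in stimulated replicates 2 and 3, against 2.21, 3.35 and 1.30 in unstimulated replicates 1 to 3, and here too the groups overlapped. The values pooled over the same libraries were 2.91 (2.38 to 3.52) in stimulated and 2.22 (1.44 to 3.28) in unstimulated cells. For Nr4a2 it was 2.48 and 1.73 in stimulated replicates 2 and 3, against 1.77, 0.409 and 0.703 in unstimulated replicates 1 to 3. The lower stimulated value of Nr4a2 lay just under its highest unstimulated one, so the groups overlapped. Pooled, Nr4a2 had 2.06 (1.48 to 2.79) in stimulated and 0.856 (0.314 to 1.86) in unstimulated cells.

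The composition of the family's counts does not depend on scaling between libraries. In RNA, Nr4a2 made up 17.1, 15.7 and 16.1% of the family's counts in stimulated replicates 1 to 3, against 18.4, 18.6 and 18.1% in unstimulated replicates 1 to 3. Every stimulated share was below every unstimulated one, and the mean fell by 2.08 percentage points, with 16.3 ± 0.739% in stimulated and 18.3 ± 0.277% in unstimulated cells (SD, n = 3 each). An exact two-sided permutation test gave p = 0.1, the smallest that 3 against 3 libraries allow, and 0.3 adjusted over the 3 members.

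Nr4a1 made up 52.4, 54.0 and 55.9% in stimulated replicates 1 to 3 and 52.1, 51.9 and 52.7% in unstimulated replicates 1 to 3, which overlapped (exact permutation p = 0.2, adjusted 0.3). Nr4a3 averaged 29.6 ± 1.40% in stimulated and 29.4 ± 0.134% in unstimulated cells (SD, n = 3 each; exact permutation p = 1). In footprints the families were small, 305 footprints in stimulated and 81 in unstimulated cells, and no test was made. Nr4a2 made up 13.4% (exact 95% interval 9.82 to 17.8) of these in stimulated and 7.41% (2.77 to 15.4) in unstimulated cells. Nr4a1 made up 51.8% in stimulated and 61.7% in unstimulated cells, and Nr4a3 34.8% in stimulated and 30.9% in unstimulated cells, with intervals that overlapped. The pooled share of Nr4a2 was lower in stimulated RNA and higher in stimulated footprints, and the difference in footprints was within the counting intervals.

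**Figure D4:**
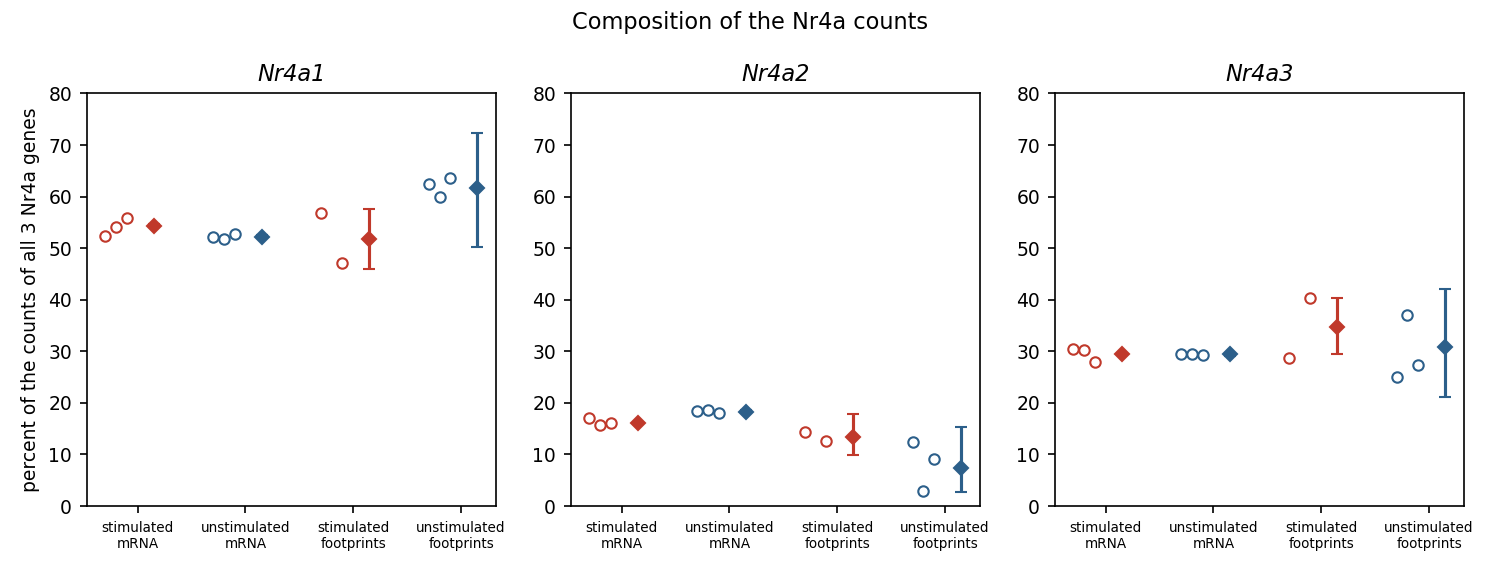
Percent of the family's counts that each Nr4a gene made up, in stimulated and unstimulated mRNA and in stimulated and unstimulated footprints; open circles are libraries and diamonds the pooled share with its exact 95% interval. Shares of mRNA lie within a few percentage points of each other, with Nr4a2 at 15.7 to 17.1% in stimulated and 18.1 to 18.6% in unstimulated libraries, and shares of footprints have wide intervals.

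Genes with an RNA profile most like each member were taken by the smallest root mean square difference of log2 CPM, centred on each gene's mean, over the 6 RNA libraries and among 8492 genes of at least 10 CPM. Nearest to Nr4a1 were Plscr1, a phospholipid scramblase gene (0.0441), Bend3 (0.0600), which encodes a heterochromatin protein, and Nop16 (0.0613), a gene for ribosome assembly in the nucleolus. The median difference from Nr4a1 over all these genes was 0.768. Nr4a3 itself was in place 7 for Nr4a1 (0.0705), and Nr4a2 in place 49 (0.131). Nearest to Nr4a3 were Bend3 (0.0509), Spred1 (0.0682), an inhibitor of the MAP kinase pathway, and Slc41a1 (0.0695), a magnesium transporter gene. Nearest to Nr4a2 were Nedd9 (0.0316), which encodes a scaffold protein of adhesion signalling, Dhx33 (0.0350), an RNA helicase gene, and Serpina3f (0.0384), a protease inhibitor gene. Nr4a3 was in place 85 for Nr4a2 (0.104). The 6 libraries are shared by all these values, which describe likeness and nothing else.

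The share of other nuclear receptors that passed was near that over all genes. Of 46 further nuclear receptor genes, 44 were tested in RNA, 2 passed as higher and 1 as lower, beside 3.58% higher and 4.68% lower over all genes, and none had enough footprints to be tested. Without unstimulated replicate 2, 19 passed as higher and 11 as lower, beside 6851 higher and 6173 lower of 19219 genes in that fit. Without stimulated replicate 3, 6 passed as lower, and there too the count over all genes, given above, was larger. Nr6a1, an orphan receptor of germ cells, had 12.3 ± 0.748 CPM in stimulated and 4.27 ± 1.91 CPM in unstimulated cells (SD, n = 3 each), a log2 change of 1.53 ± 0.29 (edgeR adjusted p = 0.00831). Nr2c2, which encodes the orphan receptor TR4, had 81.5 ± 14.7 CPM in stimulated and 131 ± 6.83 CPM in unstimulated cells and fell by 0.68 in log2 (edgeR adjusted p = 0.0410), a call lost without any 1 of unstimulated replicates 1 and 3 and stimulated replicates 1 and 2 (0.175 to 0.253). The glucocorticoid receptor gene Nr3c1 had 109 CPM in stimulated and 176 CPM in unstimulated cells (log2 change -0.69, edgeR adjusted p = 0.0539), also named after its values were seen.

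The median log2 change of the 44 receptors was 0.81, beside 0.39 over all genes tested. It went with the level of the genes. For the 14 receptors that reached 10 CPM in 1 of the groups it was -0.08, beside -0.09 over the 8705 genes of that level, and for the 30 under 10 CPM it was 1.05, beside 1.03 over 10181 genes. The Nr4a changes of 1.21 to 1.45 lay above the median of the receptors at 10 CPM or more. Footprints on the 46 other receptors summed to 26 in stimulated and 27 in unstimulated cells, against 305 in stimulated and 81 in unstimulated cells for the 3 Nr4a genes.

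**Figure D5:**
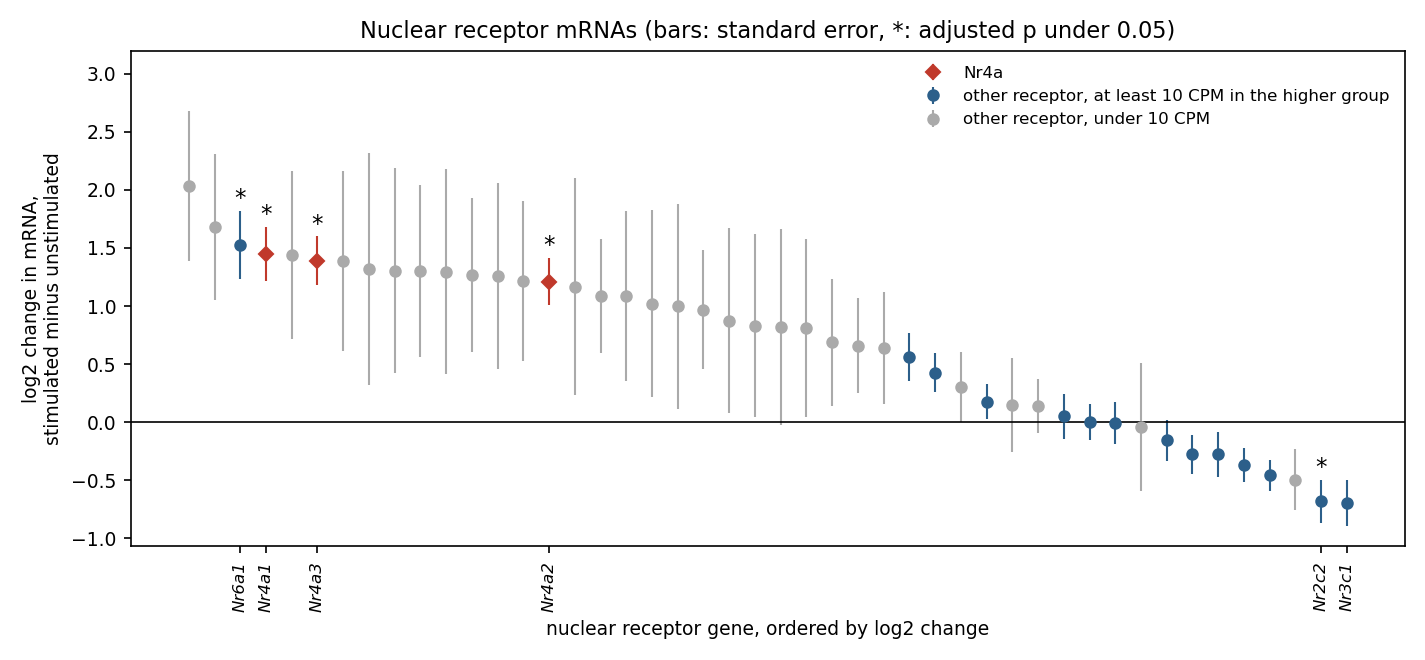
Log2 change in mRNA, stimulated minus unstimulated, with standard errors, for the 3 Nr4a genes (diamonds) and the other nuclear receptor genes tested (circles), with 1 left out, ordered by log2 change; genes named in the text are labelled. Asterisks mark an adjusted p under 0.05, and receptors with at least 10 CPM other than Nr4a lie between -0.69 and 1.53.

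Of the known regulators of Nr4a transcription, 24 did not pass the test for a change in their own mRNA, and those that passed were lower. The list held 27 genes (MEF2 factors, class IIa histone deacetylases, calcineurin and NFAT, CREB with its coactivators, and the serum response factor group). By edgeR 0 passed as higher and 3 as lower, beside 3.58% higher and 4.68% lower over all genes. Of the 23 at 10 CPM or more, 0 were higher and 3 lower, beside 597 and 858 of 8705 genes of that level. At an unadjusted p under 0.05, 0 of the 27 were higher and 9 lower, beside 3884 of all 18886 genes in either direction. DESeq2 called 0 higher and 11 lower, limma voom 2 higher and 7 lower, and over all alternatives 0 to 5 were higher and 0 to 19 lower. Over all genes DESeq2 called 353 higher and 2559 lower of 11041, and limma voom 1867 higher and 1520 lower of 18886. The 19 lower came without unstimulated replicate 2, where 6173 of 19219 genes were lower. Without stimulated replicate 3, 16 were lower, and the count over all genes was also larger there. Their median log2 change was -0.21, beside 0.39 over all genes tested and -0.09 over those of at least 10 CPM. Those that passed as lower were Hdac7 (-0.94 ± 0.20, edgeR adjusted p = 0.0132) and Hdac5 (-0.72, adjusted p = 0.0272), which encode deacetylases that hold MEF2 silent until they are exported from the nucleus, and Creb1 (-0.77, adjusted p = 0.0281), which encodes CREB.

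Hdac7 had 56.1 ± 13.9 CPM in stimulated and 108 ± 4.34 CPM in unstimulated cells. Creb1 had 135 ± 23.5 CPM in stimulated and 230 ± 12.8 CPM in unstimulated cells (SD, n = 3 each). Each of these calls was lost when single libraries were left out, that of Hdac7 without stimulated replicate 1 (0.0679), that of Hdac5 without unstimulated replicate 3 or stimulated replicate 1 or 2 (0.109 to 0.135), and that of Creb1 without any 1 of unstimulated replicates 1 and 3 and stimulated replicates 1 and 2 (0.125 to 0.204). None of the 27 genes had enough footprints to be tested.

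Of 23 genes for partners and corepressors of Nr4a proteins, 21 were tested. Among the 23 were the retinoid X receptors, the CoREST and NCoR complexes and the kinases that modify Nr4a1. Of the 21, 0 passed as higher and 1 as lower, beside 3.58% higher and 4.68% lower over all genes, a share close to the background. Of the 19 at 10 CPM or more, 0 were higher and 1 lower, beside 597 and 858 of 8705 genes of that level. The gene that fell was Mapk3, which encodes the kinase ERK1, with 10.8 ± 1.26 CPM in stimulated and 17.1 ± 0.692 CPM in unstimulated cells (SD, n = 3 each; -0.66 ± 0.14, edgeR adjusted p = 0.0132). The call was lost without any 1 of unstimulated replicates 1 and 3 and stimulated replicates 1 and 2 (0.0739 to 0.116). At an unadjusted p under 0.05, 2 of the 21 were higher and 4 lower, beside 3884 of all 18886 genes in either direction. DESeq2 called 0 higher and 6 lower, and limma voom 0 higher and 2 lower. The same tools called 353 higher and 2559 lower of 11041 genes, and 1867 higher and 1520 lower of 18886 genes. Without unstimulated replicate 2 or stimulated replicate 3 edgeR called 13 and 11 of the 21 lower. Over all genes 6173 of 19219 were lower without unstimulated replicate 2, and the count was also larger without stimulated replicate 3. The median log2 change of the 21 was -0.14, beside 0.39 over all genes tested. For the 19 at 10 CPM or more it was -0.21, beside -0.09 over all genes of that level.

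Genes tied to Nr4a proteins in T cells went in both directions. Of 27 genes, 7 rose, 7 fell and 13 did not pass in RNA, beside 3.58% higher and 4.68% lower over all genes. Their median log2 change was -0.03, beside 0.39 over all genes tested. Of the 23 at 10 CPM or more, 7 rose and 7 fell, beside 597 and 858 of 8705 genes of that level. The median of those 23 was -0.03, beside -0.09 over the 8705. Without unstimulated replicate 2 or stimulated replicate 3, 13 and 11 of the 27 fell. Without any 1 of the other 4 libraries 3 or 4 of them fell, beside 300 to 478 genes lower over all genes. Over all genes 6173 of 19219 were lower without unstimulated replicate 2, and the count was also larger without stimulated replicate 3. The largest changes were those of Il2, the gene of the growth factor interleukin 2, with 215 ± 45.4 CPM in stimulated and 3.62 ± 0.418 CPM in unstimulated cells (5.89 ± 0.25, edgeR adjusted p = 4.3e-07), and Ifng, the gene of interferon gamma, with 1680.2 ± 267 CPM in stimulated and 44.0 ± 4.11 CPM in unstimulated cells (5.25 ± 0.24, adjusted p = 5.4e-07). Myc (1.83), a driver of cell growth, and Irf4 (1.76), which scales with the strength of the receptor signal, rose too. The remaining 10 that passed are beyond the 4 that the rule names and were chosen after their values were seen. The death ligand gene Fasl (1.11), Havcr2 (1.15), which encodes the inhibitory receptor TIM-3, and Cd160 (0.92) rose. Bcl2l11 (-1.05), which encodes the death protein Bim, Ctla4 (-1.30), an inhibitory receptor gene, Tcf7 (-1.04) and Klf2 (-1.05), transcription factor genes of resting and memory cells, fell, as did Tnfsf10 (-0.65), Ikzf2 (-0.69) and Entpd1 (-0.55).

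Of these calls, those of Il2, Ifng, Myc, Irf4, Havcr2, Ctla4, Klf2 and Tcf7 held whichever single library was left out, and those of Fasl, Cd160, Bcl2l11, Tnfsf10, Ikzf2 and Entpd1 were each lost without at least 1 library, among them stimulated replicate 2 (0.0515 to 0.261). That of Cd160 was also lost under RLE scaling (0.111). The inhibitory receptor gene Pdcd1 had 195 CPM in stimulated and 144 CPM in unstimulated cells and did not pass (0.44, edgeR adjusted p = 0.289), and the exhaustion factor gene Tox had 20.4 CPM in both (0.00, adjusted p = 0.993), both chosen after their values were seen. In footprints 3 of these genes could be tested. Ifng had 110 footprints in stimulated and 6 in unstimulated cells (3.97 ± 0.55, edgeR adjusted p = 2.2e-10), and Irf4 and Myc did not pass. Like Nr4a2, Ifng reached the level of the filter in the stimulated libraries alone, so this value and its efficiency change are a description. Without a filter its footprint change was 4.24 (edgeR adjusted p = 5.2e-09). The efficiency change of Ifng was -1.22 ± 0.80 in log2, which did not pass (edgeR adjusted p = 0.603).

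Primary response genes, mainly those of transcription factors and the class to which the Nr4a genes belong, were mostly higher. Of 30 genes, 21 rose, 1 fell and 8 did not pass in RNA, beside 3.58% higher and 4.68% lower over all genes. Of the 26 at 10 CPM or more, 19 rose and 0 fell, beside 597 and 858 of 8705 genes of that level. The median log2 change of the 30 was 0.97. Leaving out 1 library gave 11 to 22 of the 30 that rose, 11 without stimulated replicate 2 and 13 without unstimulated replicate 3. The count of genes higher over all genes also fell there, from 677 to 302 of 19487 without unstimulated replicate 3. Without stimulated replicate 2 it lay within the 283 to 439 given above. The Nr4a changes of 1.21 to 1.45 lay above the list's median of 0.97 and below the largest of the group. Irf8, an interferon regulatory factor, had 781 ± 215 CPM in stimulated and 69.1 ± 7.53 CPM in unstimulated cells (3.50 ± 0.25, edgeR adjusted p = 1.6e-05). Ier3, a gene for survival under stress, rose by 3.04 ± 0.21 and Jun, a subunit of AP-1, by 2.24 ± 0.23, and Myc is given above. The gene that fell was Ier5l, with 2.75 CPM in stimulated and 7.65 CPM in unstimulated cells (-1.47, edgeR adjusted p = 0.0146), named after its values were seen, a call lost without unstimulated replicate 3 (0.143).

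In footprints 8 of the 30 could be tested and 2 rose, beside 5.86% over all genes tested. The unstimulated means of these, 450 CPM for Irf8 and 517 CPM for Junb, were under the 656 CPM that the filter asked for. Their entry into the test thus leaned on the stimulated libraries. Irf8 had 74 footprints in stimulated and 15 in unstimulated cells (2.04 ± 0.53, edgeR adjusted p = 0.00172), and Junb, another AP-1 subunit, had 73 in stimulated and 20 in unstimulated cells (1.67 ± 0.50, adjusted p = 0.00954). Both calls were lost with DESeq2 (0.760 for Irf8 and 0.0506 for Junb), without unstimulated replicate 2 (0.209 and 0.128) and without stimulated replicate 3 (0.343 for each), that of Irf8 also with limma voom (0.0731), and that of Junb also without a filter (0.15), unstimulated replicate 3 (0.0538) or stimulated replicate 2 (0.0909). For efficiency the 8 genes had a median log2 change of -0.55, beside 0.05 over the 255 genes, and none passed with edgeR. With DESeq2, Myc passed as lower (-0.98, adjusted p = 0.0473). With edgeR the values were -1.06 ± 0.46 for Myc (edgeR adjusted p = 0.252) and 0.57 ± 0.53 for Junb (adjusted p = 0.798), beside 0.04, 1.39 and 0.52 for Nr4a1, Nr4a2 and Nr4a3.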

How the data were processed

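The deposited values were unnormalized integer counts of reads on coding sequences for 21957 genes, in 6 RNA and 5 footprint libraries. Alignment used STAR 2.5 and the mm10 (GRCm38) build, per the submitters' processing notes. The counting tool, the annotation, the use of strand and the treatment of reads that match more than 1 Nr4a gene are not given in the sources used here. Symbols came from RefSeq's annotation of GRCm38.p6, which matched 21838 genes.

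RNA and footprints were tested separately by edgeR (version 4.0.16, R 4.3.3) with its quasi-likelihood F test, TMM scaling, a filter on low values (a minimum count of 10 and a total of 15) and no covariates. Tests were two-sided and adjusted by Benjamini-Hochberg over all genes tested, at a threshold of 0.05. Efficiency was the interaction of assay and stimulation in 1 fit of the 11 libraries, scaled within assays. Levels are CPM scaled by TMM. Intervals of counts are exact Poisson and of shares exact Clopper-Pearson (95%, scipy 1.17.1), and like the limit of 3 counts they cover counting error only. The fits were tested on simulated data. The members, the 5 gene lists and the tests were chosen with earlier results of these data known.

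Genes named were the members, the 3 genes nearest to each member in RNA, and up to 4 per list and comparison. These 4 were the largest absolute log2 changes among those that passed at 10 CPM or more in 1 of the groups, or the 2 most abundant genes where none passed. Alternatives were DESeq2 1.42.0, limma 3.58.1 voom, RLE scaling, library totals, scaling without 4 genes, no filter, genes of at least 10 CPM, an adjusted p of 0.01, a replicate block, each library left out, and RNA thinned to the median footprint total (seed 20). A background covariate, a fit without the 3 RNA libraries of most background and the alternatives for the lists were added after seeing the data. Members were not ranked by level, since coding lengths were not used here. The values of 1 other nuclear receptor gene, counted among those higher in RNA, are not reported here.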

Additional observations from a re-analysis of the deposited data

How the results depend on the processing

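The RNA rise of Nr4a1 and Nr4a3 kept its direction and passed in all 18 and 17 alternatives (log2 1.12 to 1.73 and 1.07 to 1.54). Nr4a2 did so in 16 of 17, with 0.90 to 1.19 when 1 library was left out. In footprints Nr4a1 passed in all 14 alternatives and Nr4a3 in 13, with 1.54 to 2.22 when 1 library was left out. Nr4a2 passed in 7 of 14, with 2.67 by DESeq2, 2.37 by limma voom and 2.82 without a filter not passing, 2.53 not passing at a threshold of 0.01, and 2.10 to 3.10 when 1 library was left out. The efficiency change of Nr4a1 was -0.14 under the replicate block, -0.26 to 0.38 when 1 library was left out. The difference in the RNA share of Nr4a3 ran from -0.26 to 0.996 percentage points when 1 library was left out. Same-numbered RNA libraries had correlated deviations of -0.42, 0.32 and 0.63, so the numbers were not taken to pair them. With the replicate block the RNA changes were 1.42, 1.19 and 1.37, the footprint changes 1.63, 3.14 and 1.91 and the efficiency changes of Nr4a2 and Nr4a3 1.25 and 0.37, and no call of a member changed. Genes called higher and lower in RNA were 353 and 2559 by DESeq2, 1867 and 1520 by limma voom, 334 and 1364 under RLE scaling and 1005 and 4215 with library totals. They were 410 and 1007 without a filter, 3138 and 3090 at 10 CPM or more, 327 and 301 at 0.01, 1236 and 1168 under the block and 12 and 7 when thinned, where Nr4a2 and Nr4a3 did not pass the filter. Without the 3 libraries of most background they were 1943 and 5398 and with the covariate 1941 and 1073. Leaving out 1 library gave 283 to 6851 higher and 300 to 6173 lower. In footprints 1 gene was lower without a filter and 3 at 10 CPM or more, and leaving out 1 library gave 4 to 18 higher. For efficiency the counts were 21 higher and 8 lower of 1357 genes by DESeq2. There was 1 higher by limma voom and under RLE scaling, 15 with library totals, 2 without the 4 genes and 8 at 10 CPM or more. Without a filter 3 were lower, and 0 to 24 were higher and 0 to 1 lower when 1 library was left out. The cause of these changes was not tested. The median RNA change of all genes ran from 0.00 at 10 CPM or more to 0.45 without a filter. Footprint depth limits the values of Nr4a2, with 6 counts in unstimulated cells.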
